A study of Mus musculus with 3 samples.

Results

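The 50 genes described here encode the ATP-dependent chromatin remodellers of the SWI/SNF and CHD families, with subunits of the related INO80 and ISWI machines and further genes of the ARID family, out of 24467 gene symbols counted. They were chosen by symbol alone: those starting with Smarc, Arid1 to Arid5 or Ino80, the genes Chd1 to Chd9, Dpf1 to Dpf3 and Bcl7a to Bcl7c, and Pbrm1, Phf10, Ss18, Actl6a and Actl6b. The symbol rule also took in Smarca5-ps, a processed pseudogene, and Ino80dos, a noncoding RNA gene. Polyadenylated RNA came from 3 samples of 5TGM1.BRE, a bortezomib-resistant mouse multiple myeloma line that goes back to a spontaneous marrow tumour of C57Bl/KaLwRij mice and is labelled as able to engraft. Bortezomib is a proteasome inhibitor used to treat myeloma. All 3 samples were cultured in 10 nM bortezomib with 20% serum and were off the drug for 72 h or longer before RNA was taken from 10000000 cells each. The cell type label of replicate 1, unlike those of replicates 2 and 3, leaves out the selection in bortezomib, while its title names the cells as resistant. There was 1 group, and no sensitive line was analysed here, so the levels describe these resistant cells alone. Whether the samples were separate cultures is not stated, so the SDs and p-values below measure only how these samples scatter, which may be technical.

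Chromatin remodellers use ATP to slide, evict or exchange nucleosomes. SWI/SNF (BAF) complexes carry either SMARCA4 (BRG1) or SMARCA2 (BRM) as their motor and come in a canonical form marked by ARID1 and DPF subunits and a PBAF form marked by ARID2, PBRM1 and PHF10, and subunits of these complexes are mutated in many human cancers, including lymphoid ones. CHD proteins pair the same kind of motor with chromodomains, and CHD4 is the motor of the NuRD deacetylase complex. Many subunits have paralogs that are used in particular tissues, such as ACTL6B in neurons and SMARCD3 and DPF3 in heart and muscle.

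The libraries held 62303493, 45705994 and 59402218 counts in replicates 1, 2 and 3. Replicate 3 stood apart: the chi-square statistic per degree of freedom over genes was 65.1 for replicates 1 and 3 and 44.4 for replicates 2 and 3, against 4.0 for replicates 1 and 2, so no pair agreed within sampling noise and all 3 were counted. All 8 plasma cell markers, among them Sdc1 and Irf4, were at 1 CPM or more in every library (CPM are counts scaled to a library total of 1000000). None of 7 T and NK cell and none of 8 myeloid markers reached that level, and their summed levels were 0.175 to 0.369 CPM and 0.175 to 0.488 CPM per library. Of 7 mature B cell markers 2, Fcer2a and Ms4a1, passed the limit, as did Itga2b among 7 erythroid and megakaryocyte and Pecam1 among 7 stromal and endothelial markers. Markers with 0 counts in every library were 2 of the T and NK cell and 2 of the myeloid list. So were 3 of the erythroid and megakaryocyte list and 1, Col1a2, of the stromal and endothelial list. The other markers of these lists had counts, such as Col1a1 with 41, 36 and 34 and Klf1 with 20, 16 and 21 in replicates 1, 2 and 3.

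Most of the remodeller genes were transcribed. Of the 50 members, 42 (84%) were at 1 CPM or more in every library, against 40.9% of all 24467 genes, and 42 were again counted when any 1 replicate was left out. Levels of different genes are compared below as CPM per kilobase of union exon length, the summed length of all annotated exons, since longer transcripts give more reads. On that scale the detected members spanned 0.327 to 44.5 CPM per kilobase, with a median of 9.13, equal at this precision to the median of 9.13 over all 9969 detected genes with a length. The highest were Chd4, Smarca4, Phf10, Smarca5 and Arid3a. The order was much the same when the longest transcript gave the length (Spearman's rho of 0.95 over the 42 detected genes, which share their libraries), where Actl6a came first and Chd4 second.

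**Figure D1:**
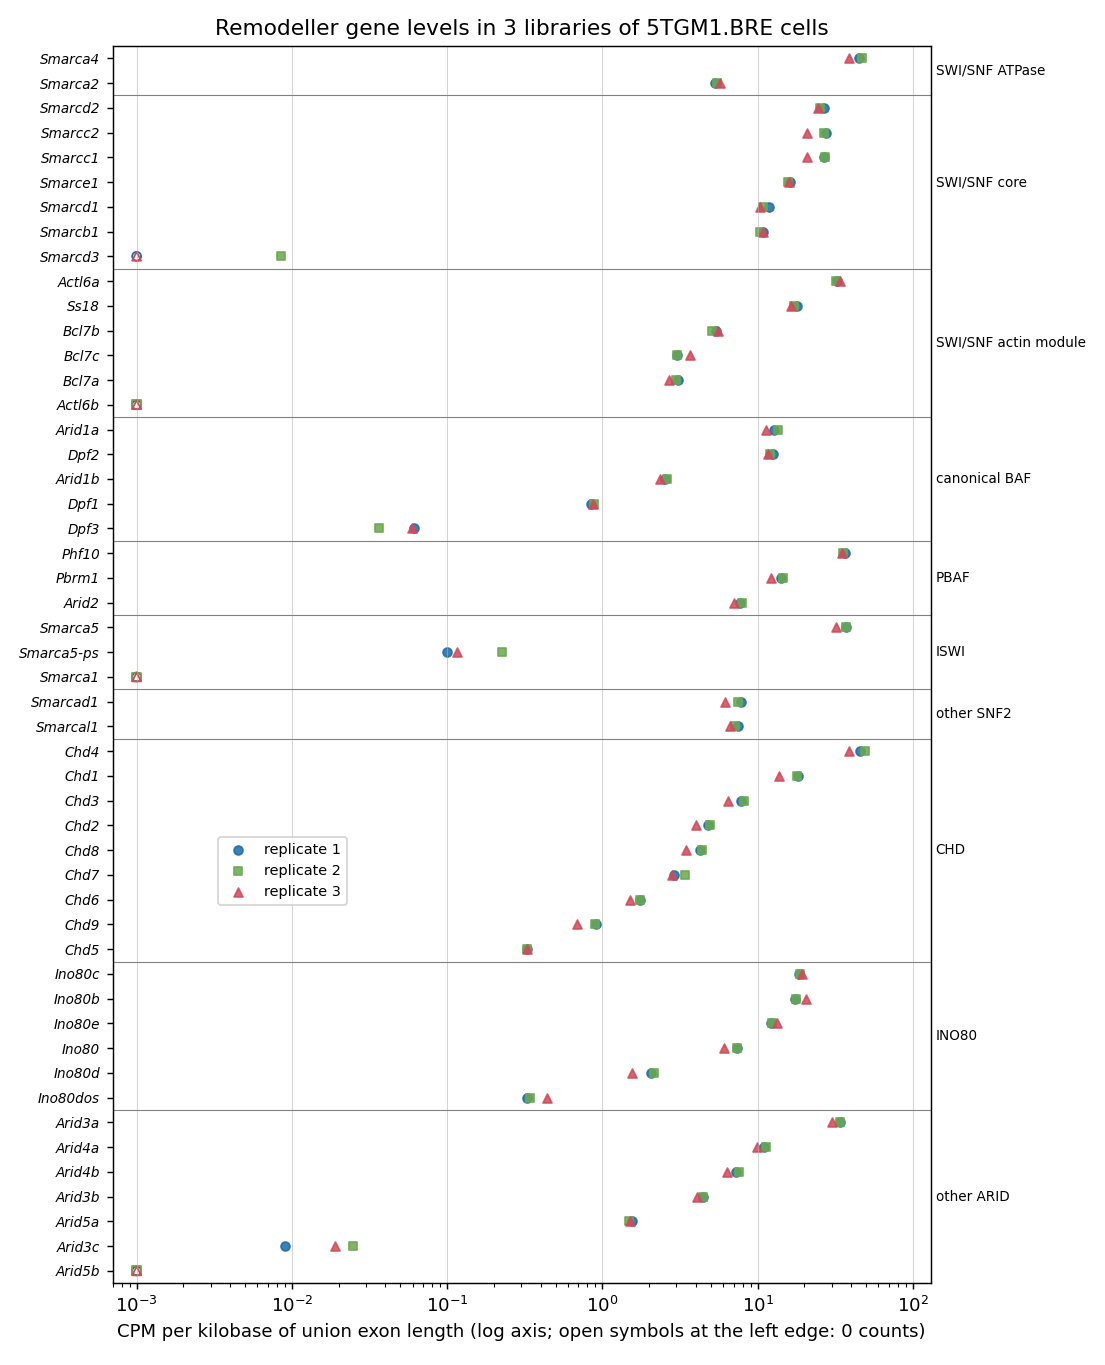
Level of each of the 50 genes in CPM per kilobase of union exon length (log axis), 1 symbol per library, grouped by complex; open symbols at the left edge mark 0 counts. Chd4 and Smarca4 have the highest levels, with means of 44.5 and 43.5 CPM per kilobase, and Actl6b, Arid5b and Smarca1 have no count in any library.

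Of the SWI/SNF motors, Smarca4 was the more abundant. Smarca4 (chromosome 9, 21616169 to 21704230, plus strand, GRCm38) was at 292, 303 and 250 CPM in replicates 1, 2 and 3, or 43.5 ± 4.37 CPM per kilobase (SD, n = 3). Smarca2 (chromosome 19, 26605050 to 26778322, plus strand) was at 76.0, 77.6 and 81.8 CPM, or 5.50 ± 0.211 CPM per kilobase. The ranges did not overlap. Within each library the log2 ratio of Smarca4 to Smarca2 per kilobase was 2.98 ± 0.20 (SD, n = 3). This is a 7.89-fold difference, which was 3.32-fold when the longest transcript gave the length, since the union exon length of Smarca2 is 14269 bases and its longest transcript 5921. The ratio was lower in replicate 3, at 2.75, than in replicates 1 and 2, at 3.08 and 3.11.

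Across 25 such within-library ratios, 22 reached p = 0.25 when an exact permutation test flipped the signs of the libraries (two-sided), the smallest p that n = 3 libraries allow (0.284 after Benjamini-Hochberg adjustment over the 25). This test cannot reach 0.05 with so few libraries, so the ratios are given by their size beside the spread between libraries.

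The paired scaffold genes of the core lay at close levels. Smarcc1 and Smarcc2 encode the paired scaffold proteins BAF155 and BAF170. Smarcc1 was at 26.9, 27.1 and 20.9 CPM per kilobase and Smarcc2 at 27.7, 26.8 and 20.8 CPM per kilobase in replicates 1, 2 and 3. Their log2 ratio was -0.01 ± 0.03 (SD, n = 3; exact permutation p = 1), so the levels could not be told apart in these libraries, and each was lowest in replicate 3. With no length correction the ratio was 0.49 and with the longest transcript 0.15. Of the paralogs that encode the BAF60 subunits, Smarcd1 was at 11.9, 10.9 and 10.3 CPM per kilobase in replicates 1, 2 and 3 and Smarcd2 at 26.9, 25.4 and 24.6. Smarcd2 was the higher in all 3 libraries, with a log2 ratio of Smarcd1 to Smarcd2 of -1.22 ± 0.04 (SD, n = 3). Smarce1, which encodes the DNA-binding subunit BAF57, was at 16.3, 15.7 and 16.02 CPM per kilobase, and Smarcb1, the tumour suppressor SNF5, at 10.8, 10.4 and 10.8. The log2 ratios of Smarcb1 and Smarce1 to Smarca4 were -2.02 ± 0.17 and -1.44 ± 0.16 (SD, n = 3 for each). With the longest transcript as the length the ratio of Smarce1 to Smarca4 was -0.37.

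The actin-related module and its neighbours were led by Actl6a and Ss18. Actl6a, which encodes the actin-like protein BAF53A, was at 125, 124 and 131 CPM in replicates 1, 2 and 3, or 32.6 ± 0.963 CPM per kilobase (SD, n = 3). A stretch of 452 bases of its exons overlaps Mrpl47 on the opposite strand, and the strand setting of the counting is not given, so some of its counts are uncertain. Ss18, known for its fusion in synovial sarcoma, was at 17.3 ± 0.756 CPM per kilobase (SD, n = 3). The Bcl7 genes, which encode small accessory subunits, were lower, with Bcl7b at 5.39, 5.05 and 5.58, Bcl7c at 3.003, 3.03 and 3.67 and Bcl7a at 3.07, 2.99 and 2.69 CPM per kilobase in replicates 1, 2 and 3. Their order rests on the length taken. The log2 ratio of Bcl7b to Bcl7a was 0.87 per kilobase and -1.11 with no length correction, and that of Bcl7c to Bcl7a was 0.14 ± 0.26 (SD, n = 3; exact permutation p = 0.75), -0.65 with the longest transcript and -0.0062 without replicate 3, the library in which Bcl7c was highest.

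Canonical BAF was represented mainly by Arid1a and Dpf2. Arid1a, which encodes the largest DNA-binding subunit and is often mutated in human cancer, was at 146, 156 and 129 CPM in replicates 1, 2 and 3, and its paralog Arid1b at 31.8, 33.0 and 29.7 CPM. Arid1a was the higher in every library, with a log2 ratio per kilobase of 2.32 ± 0.06 (SD, n = 3), which is 4.99-fold. Dpf2, a PHD finger subunit, was at 12.6, 12.1 and 11.7 CPM per kilobase, against 0.845, 0.887 and 0.874 for Dpf1, which in mouse brain belongs to the neuronal complex. Dpf3 had 16, 7 and 15 counts. The ratio of Dpf2 to Dpf1 was 14.0-fold, and that of Dpf2 to Dpf3 was 7.70, 8.38 and 7.62 on the log2 scale in replicates 1, 2 and 3.

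All 3 PBAF genes were expressed. Phf10 (chromosome 17, 14945009 to 14961273, minus strand), which encodes the PHD finger subunit BAF45A, ranked behind Chd4 and Smarca4 alone at 36.7, 35.5 and 34.9 CPM per kilobase, with little spread between the libraries. A stretch of 470 bases of its exons overlaps 1600012H06Rik on the opposite strand. Pbrm1, the polybromo subunit that reads acetylated histones, was at 14.2, 14.6 and 12.1 CPM per kilobase, and Arid2 at 7.75, 7.89 and 7.07. Arid2 lay below Arid1a in every library, at a log2 ratio of -0.72 ± 0.06 (SD, n = 3). Pbrm1 and Arid1a differed little, at a log2 ratio of 0.12 ± 0.03 per kilobase that was -0.20 with the longest transcript and -0.25 with no length correction.

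**Figure D2:**
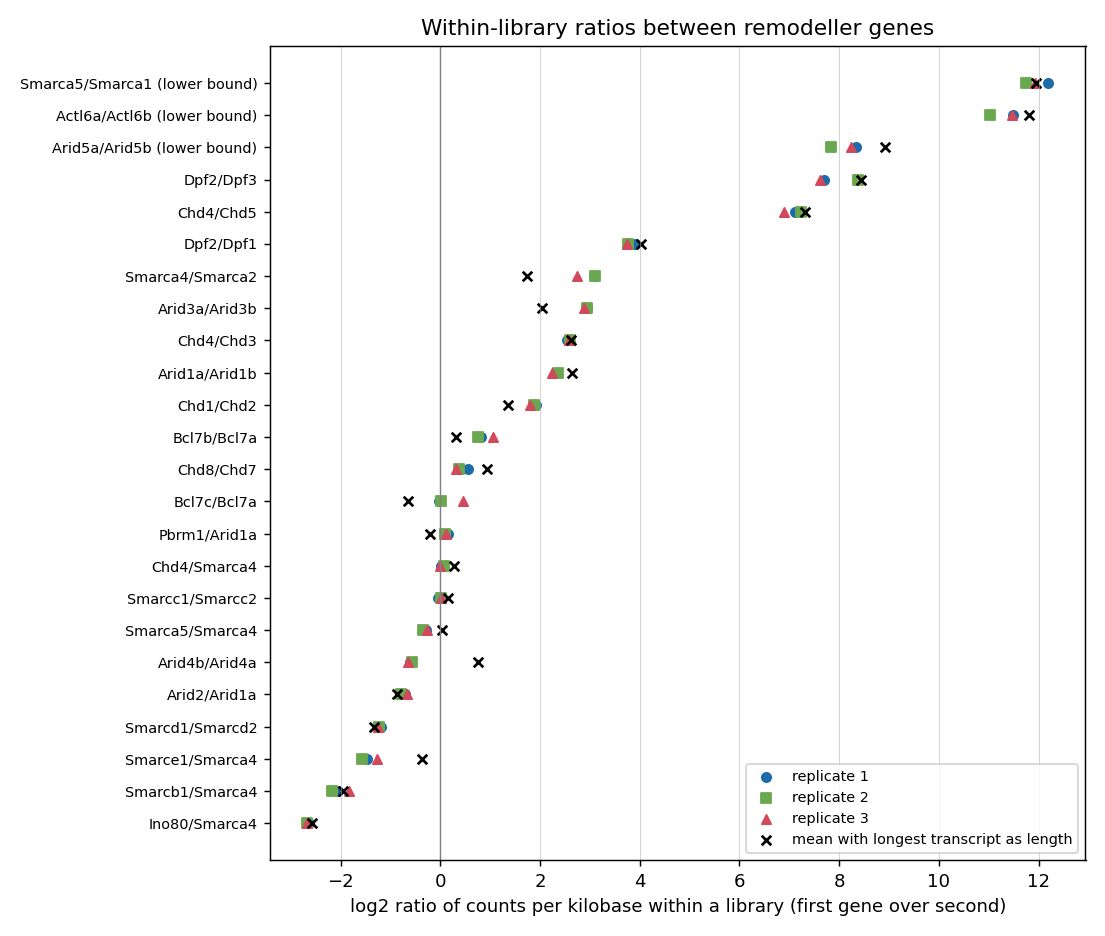
Log2 ratio of counts per kilobase for 24 of the 25 gene pairs, first gene over second, with 1 symbol per library and a cross for the mean when the longest transcript is taken as the length. Ratios to Smarca1, Actl6b and Arid5b are lower bounds set by a floor of 3 counts per library; Smarca4 over Smarca2 lies between 2.75 and 3.11, and its cross at 1.73.

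Some paralogs were at or near 0 counts while their partners were detected. Smarca1, Actl6b and Arid5b had no count in any library, so each could have been at up to 0.0179 CPM, set by a floor of 3 over the 167411705 pooled counts. Against a floor of 3 counts over all libraries, Smarca5 was at least 12022-fold higher than Smarca1 per kilobase, Actl6a at least 7773-fold higher than Actl6b and Arid5a at least 854-fold higher than Arid5b. Smarcd3 had 0, 2 and 0 counts, so Smarcd1 exceeded it 4738-fold over the summed counts, with an exact 95% interval of 1311 to 39129 for counting error only. The exons of Smarcd3 overlap those of Chpf2 on the opposite strand over 2466 bases, and Chpf2 had 2536, 1968 and 2303 counts. Arid3c had 1, 2 and 2 counts, 1937-fold below Arid3a per kilobase with an interval of 829.9 to 5965. PCR can copy 1 molecule into several reads, so these intervals and limits cover only the error of counting. None of 6 neural markers reached 1 CPM, with Rbfox3 at 0 counts. Of 6 muscle and heart markers Des alone did, at 6.83 ± 0.635 CPM (SD, n = 3), while Myh6, Nkx2-5 and Myod1 had 0.

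Promoters of expressed and silent paralogs were compared by their CG dinucleotides, the sites of DNA methylation, which cluster in the promoters of widely expressed genes. RefSeq promoters (GRCm38.p6, 250 bases before to 50 after a start) matched 37 of the 50 members, and the first listed start of each was used. The 30 detected members held a median of 26.5 CG in 300 bases and the 7 others 23, against 22 in 7790 detected genes and 3 in 5419 genes without a count. Smarca1 and Arid5b held 9 and 7, the silent Smarcd3 and Actl6b 40 and 23, and the detected Smarcd2 4, so members at or near 0 counts lay on either side of the detected median. The listed starts of Smarcd3, Smarcc1 and Smarcd2 lie 22409, 14316 and 5340 bases from the GENCODE gene start. Those of Actl6a, printed below, and Ino80dos lie 2248 and 1393 bases from it. These starts may not be the main ones. The 250 bases upstream of the listed start are given for pairs of high and silent or low paralogs, with every CG in capitals:
Smarca5 (chr8:80739460-80739709, minus strand): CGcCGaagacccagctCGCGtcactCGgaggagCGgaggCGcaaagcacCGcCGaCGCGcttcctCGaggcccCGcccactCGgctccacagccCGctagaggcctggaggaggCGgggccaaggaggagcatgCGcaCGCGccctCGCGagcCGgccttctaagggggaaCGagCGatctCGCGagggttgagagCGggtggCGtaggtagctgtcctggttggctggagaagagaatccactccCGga
Smarca1 (chrX:47892614-47892863, minus strand): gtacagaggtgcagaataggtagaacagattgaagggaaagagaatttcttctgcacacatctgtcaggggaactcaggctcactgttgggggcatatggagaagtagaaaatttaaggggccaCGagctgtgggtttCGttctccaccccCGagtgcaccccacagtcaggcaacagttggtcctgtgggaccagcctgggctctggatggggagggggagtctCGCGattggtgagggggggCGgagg
Actl6a (chr3:32708296-32708545, plus strand): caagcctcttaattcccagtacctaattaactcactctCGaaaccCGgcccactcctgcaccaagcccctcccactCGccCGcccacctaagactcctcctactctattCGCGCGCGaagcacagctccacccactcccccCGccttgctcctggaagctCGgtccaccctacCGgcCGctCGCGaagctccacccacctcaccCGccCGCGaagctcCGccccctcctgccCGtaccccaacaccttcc
Actl6b (chr5:137553296-137553545, plus strand): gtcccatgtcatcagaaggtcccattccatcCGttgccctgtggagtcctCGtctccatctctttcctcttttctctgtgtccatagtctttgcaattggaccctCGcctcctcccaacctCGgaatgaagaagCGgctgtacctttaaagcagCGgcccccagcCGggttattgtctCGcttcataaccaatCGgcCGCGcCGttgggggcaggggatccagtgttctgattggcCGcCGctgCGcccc
Arid5a (chr1:36307483-36307732, plus strand): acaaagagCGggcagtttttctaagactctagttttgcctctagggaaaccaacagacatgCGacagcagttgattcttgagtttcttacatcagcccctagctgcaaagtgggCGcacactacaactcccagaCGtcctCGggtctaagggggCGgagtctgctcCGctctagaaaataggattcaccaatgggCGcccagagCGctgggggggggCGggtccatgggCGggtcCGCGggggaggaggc
Arid5b (chr10:68278727-68278976, minus strand): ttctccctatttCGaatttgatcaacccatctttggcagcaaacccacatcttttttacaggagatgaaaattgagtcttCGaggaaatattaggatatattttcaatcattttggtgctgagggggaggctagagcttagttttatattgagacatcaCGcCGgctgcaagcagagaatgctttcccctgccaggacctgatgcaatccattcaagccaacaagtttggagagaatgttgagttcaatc
Chd4 (chr6:125095731-125095980, plus strand): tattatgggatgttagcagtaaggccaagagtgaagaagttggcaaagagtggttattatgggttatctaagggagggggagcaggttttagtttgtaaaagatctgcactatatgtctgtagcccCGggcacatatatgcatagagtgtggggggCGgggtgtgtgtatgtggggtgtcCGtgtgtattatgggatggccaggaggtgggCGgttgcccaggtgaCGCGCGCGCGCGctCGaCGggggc
Chd5 (chr4:152338401-152338650, plus strand): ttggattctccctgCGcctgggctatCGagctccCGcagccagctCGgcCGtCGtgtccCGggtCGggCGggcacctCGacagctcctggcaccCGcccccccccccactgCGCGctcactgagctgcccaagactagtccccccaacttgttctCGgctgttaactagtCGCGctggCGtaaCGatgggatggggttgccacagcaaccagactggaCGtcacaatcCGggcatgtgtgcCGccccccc

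These upstream stretches hold 29 CG for Smarca5 against 6 for Smarca1, 19 for Actl6a against 15 for Actl6b, and 13 for Arid5a against 4 for Arid5b. Chd4 and Chd5 ran the other way, with 12 CG upstream of the abundant Chd4 and 21 upstream of Chd5, which was 135-fold lower. These are counts of letters, and methylation was not measured.

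Among the ISWI motors, Smarca5 (SNF2H) was present and its paralog Smarca1 (SNF2L), which is typical of neural tissue, was at 0 as given above. Smarca5 (chromosome 8, 80698507 to 80739497, minus strand) was at 288, 288 and 249 CPM in replicates 1, 2 and 3, or 35.3 ± 2.88 CPM per kilobase (SD, n = 3), the fourth level among the members. Its log2 ratio to Smarca4 was -0.30 ± 0.04 (SD, n = 3), and 0.027 with the longest transcript, so the order of the 2 genes depends on the length taken. The pseudogene Smarca5-ps had 20, 33 and 22 counts, with replicate 2 the highest. Its transcript matches that of Smarca5 at 3056 of 3116 aligned bases (98.1%), so its few counts cannot be told apart from misassigned Smarca5 reads. A stretch of 100 bases in the coding region of Smarca5 and its counterpart in the pseudogene show how close they are, with the 4 differing bases in capitals (GENCODE M21 transcripts, GRCm38):
Smarca5 (chr8:80733757-80733856, minus strand): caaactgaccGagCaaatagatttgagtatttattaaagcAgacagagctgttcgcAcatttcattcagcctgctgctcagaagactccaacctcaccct
Smarca5-ps (chr4:145464521-145464620, plus strand): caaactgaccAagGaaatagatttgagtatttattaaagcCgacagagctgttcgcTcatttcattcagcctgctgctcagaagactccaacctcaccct

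The more distant SNF2 relatives were at middle levels. Smarcal1, which anneals and restarts stalled replication forks, was at 7.08 ± 0.408 CPM per kilobase. Smarcad1, which helps restore silent chromatin after replication, was at 7.16 ± 0.852 CPM per kilobase (SD, n = 3 for each).

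All 9 CHD genes were detected, over a range from 0.327 to 44.5 CPM per kilobase. Chd4 (chromosome 6, 125095981 to 125130591, plus strand), the NuRD motor, was at 366, 396 and 309 CPM in replicates 1, 2 and 3, the highest level of any member both by CPM and per kilobase of union exon. Its NuRD paralogs followed far below. Chd3 was at 66.1, 68.7 and 54.5 CPM, and Chd5, a tumour suppressor best known from neural tissue and testis, at 3.15, 3.15 and 3.11 CPM. Chd4 exceeded Chd3 by 2.57 ± 0.03 on the log2 scale per kilobase, a 5.95-fold difference, and Chd5 by 7.08 ± 0.17 (SD, n = 3 for each). Its level per kilobase was close to that of Smarca4, at a log2 ratio of 0.03 ± 0.04 (SD, n = 3; exact permutation p = 0.5).

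Chd1, which binds methylated histone H3 at active genes, was at 18.2, 18.0 and 13.8 CPM per kilobase, and Chd2 at 4.78, 4.90 and 3.98, a 3.65-fold difference in the mean ratio. A same-strand transcript, 1810026B05Rik, overlaps 18.4% of the exon length of Chd2 and had 2334, 1976 and 2977 counts, so the Chd2 level is uncertain. Of the subfamily that holds Chd6 to Chd9, Chd8, linked to autism in humans, was at 4.28, 4.39 and 3.48 CPM per kilobase. Chd7, the gene of CHARGE syndrome in humans, was at 2.90, 3.39 and 2.80 CPM per kilobase, with replicate 2 the highest. Chd6 was at 1.67 ± 0.143 and Chd9 at 0.830 ± 0.127 CPM per kilobase (SD, n = 3 for each). The log2 ratio of Chd8 to Chd7 was 0.42 ± 0.13 (SD, n = 3), and the ranges of Chd8 and Chd7 did not overlap.

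INO80 exchanges histone H2A variants and acts in transcription and DNA repair. Its motor gene Ino80 was at 49.7, 50.2 and 41.2 CPM, or 6.91 ± 0.744 CPM per kilobase (SD, n = 3), and its log2 ratio to Smarca4 was -2.65 ± 0.02. The subunit genes Ino80c and Ino80b were higher, at 18.8 ± 0.361 and 18.5 ± 1.71 CPM per kilobase, followed by Ino80e at 12.6 ± 0.623 and Ino80d at 1.91 ± 0.314 (SD, n = 3 for each). Ino80e overlaps Doc2a over 1103 bases and Hirip3 over 150 bases, both on the opposite strand. Doc2a had 50, 32 and 58 counts and Hirip3 6151, 4516 and 5607, so counts in the shared bases are uncertain. Ino80dos had 59, 45 and 75 counts, of which replicate 3 alone exceeded 1 CPM, at 1.26 CPM. It overlaps the exons of Ino80d over 431 bases and those of Ndufs1 over 489 bases, both on the opposite strand, so its counts cannot be assigned to it with certainty.

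The remaining ARID genes encode DNA-binding proteins outside SWI/SNF. Arid3a (Bright), which was first described as an activator of immunoglobulin heavy chain transcription in B cells, was the fifth member, at 34.2, 34.0 and 30.0 CPM per kilobase. Its log2 ratio to Arid3b was 2.92 ± 0.04 (SD, n = 3), which is 7.58-fold, or 4.11-fold with the longest transcript. Arid3b was at 4.43, 4.43 and 4.08 CPM per kilobase. Arid4a and Arid4b encode retinoblastoma-binding partners of a SIN3 deacetylase complex. Arid4a was at 10.9, 11.3 and 9.95 and Arid4b at 7.203, 7.63 and 6.35 CPM per kilobase, but the log2 ratio of Arid4b to Arid4a was -0.60 with the union exon length, 16965 bases for Arid4b, and 0.76 with the longest transcript, 5864 bases. Arid5a, an RNA-binding protein that stabilises cytokine messages, was at 1.55, 1.49 and 1.51 CPM per kilobase.

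Known partners of these motors were nearly all expressed. All 6 BAF partners passed 1 CPM in every library. Actb, which is also the cytoskeletal actin, was at 673 ± 21.3, Brd7 of PBAF at 23.5 ± 0.286 and Brd9 of the noncanonical complex at 11.1 ± 0.177 CPM per kilobase (SD, n = 3 for each). Of 12 NuRD partners 11 passed, led by the histone chaperone Rbbp7 at 161 ± 4.62, Mta2 at 86.4 ± 4.41 and Mbd2 at 70.2 ± 3.46 CPM per kilobase (SD, n = 3 for each), while Mta3 had 0, 1 and 0 counts. All 9 ISWI partners passed, with Pole3 at 48.3 ± 2.32, Baz1a at 25.4 ± 3.62 and Baz1b at 11.3 ± 1.76 CPM per kilobase (SD, n = 3 for each). All 18 INO80, SRCAP and TIP60 partners passed, led by the helicases Ruvbl2 at 68.0 ± 1.84 and Ruvbl1 at 54.6 ± 0.785 and by Yeats4 at 48.4 ± 1.97 CPM per kilobase (SD, n = 3 for each). All 13 further SNF2 ATPases passed, with Hells at 20.2 ± 1.89, Chd1l at 15.4 ± 0.606 and Btaf1 at 14.1 ± 2.23 CPM per kilobase (SD, n = 3 for each).

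Many remodeller genes, 8 of the 9 CHD genes among them, had lower levels in replicate 3 than elsewhere. Of the 44 members that passed the filter on low counts, 21 were lower in replicate 3 and 5 higher at an adjusted p under 0.05 by edgeR's quasi-likelihood test against the mean of replicates 1 and 2. The same test called 26.8% of all 11308 genes lower and 24.8% higher, so the members' 47.7% lower lay above that background and their 11.4% higher below it. Their median log2 difference was -0.12, against 0.01 over all genes tested. Among the CHD genes, Chd5 at 0.02 ± 0.14 (log2 ± SE) did not pass. All 9 CHD genes are longer than 7953 bases of union exon, and of all 1908 tested genes above that length 63.9% were called lower. The 8 CHD calls were 7 with no scaling factors or no filter on low counts, both without Chd7, and 6 with DESeq2, without Chd6 and Chd7. The median log2 difference of the 9 CHD genes was -0.27 as fitted and -0.01 with the trend on union exon length removed. With the trend on longest-transcript length removed it was -0.01, with Chd7 at 0.17. Replicates 1 and 2, each set against the other libraries, gave 0 members past the threshold in edgeR, in DESeq2 and with any of the trends below removed, with 0 and 1 members at an unadjusted p under 0.05. Across all genes edgeR called 0.0265% higher and 0.0531% lower in replicate 1 (0.0442% lower with a trend removed) and 0.0265% in each direction in replicate 2, and DESeq2 called 0.00615% lower in each of them. These tests have 1 residual degree of freedom and compare libraries, not conditions. The error of each was estimated from the remaining 2 libraries and drawn towards a value shared over genes. An SE is thus not the spread of its own gene alone, and errors are wide where replicate 3 is among the remaining 2. In bulk RNA fewer cells of a type and less RNA per cell cannot be told apart. The summed level of the plasma cell markers was 4504 CPM in replicate 3, against 4611 and 4515 CPM in replicates 1 and 2, while single plasma cell markers moved either way, with Mzb1, Jchain and Xbp1 higher at 0.27, 0.20 and 0.13 on the log2 scale and Prdm1 and Slamf7 lower at -0.27 and -0.22. The summed level of the mature B cell markers was 6.11 CPM, against 9.60 and 4.35 CPM. Their part in the result was not tested.

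Among the genes lower in replicate 3, the 5 largest differences were those of Ino80d, Chd9, Chd1, Smarcc2 and Smarcc1. Ino80d was at 27.5 CPM in replicate 3, against 36.2 and 37.9 CPM in replicates 1 and 2, a log2 fold change of -0.40 ± 0.06 (SE; edgeR adjusted p = 8.5e-09). Chd9 was at 15.8 CPM, against 20.9 and 20.9 CPM, a log2 fold change of -0.37 ± 0.07 (SE). With the trend on union exon length removed these fold changes were -0.11 for Ino80d and -0.07 for Chd9, no longer past the threshold (edgeR adjusted p of 0.17 and 0.529). Chd1 was at 120 CPM, against 159 and 157 CPM, a change of -0.36 ± 0.04 (SE). Replicate 3 was below both other libraries for each of these genes. The scaffold genes moved alike: Smarcc2 was at 116 CPM in replicate 3, against 154 and 149 CPM, and Smarcc1 at 164 CPM, against 211 and 212 CPM, with log2 fold changes of -0.36 ± 0.04 and -0.34 ± 0.04 (SE). Chd4 and Smarca4 were lower by less, at -0.27 ± 0.04 and -0.22 ± 0.04 (SE). The other genes past the threshold on this side were Chd8, Chd3, Smarcad1, Chd2, Ino80, Pbrm1, Arid1a, Arid4b, Chd6, Smarca5, Arid3a, Chd7, Arid4a and Arid2, between -0.29 and -0.11 on the log2 scale.

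The 5 genes higher in replicate 3 were Bcl7c, Ino80b, Ino80e, Smarca2 and Actl6a. Bcl7c was at 26.5 CPM in replicate 3, against 21.7 and 21.9 CPM in replicates 1 and 2, a log2 fold change of 0.31 ± 0.07 (SE; edgeR adjusted p = 1.5e-05). Ino80b was at 32.6 CPM, against 27.6 and 28.1 CPM, a change of 0.26 ± 0.07, and Ino80e at 102 CPM, against 93.8 and 94.0 CPM, a change of 0.15 ± 0.04 (SE for each). With the trend on union exon length removed Ino80b was at 0.05 and Actl6a at 0.09, neither past the threshold (edgeR adjusted p of 0.642 and 0.0638), and with that on longest-transcript length at 0.07 and -0.03. Smarca2 and Actl6a were higher by 0.12 ± 0.04 and 0.10 ± 0.04 (SE). Smarca4 and Smarca2, alternative motors of the same complex, thus lay on opposite sides as fitted. With the trend on longest-transcript length removed Smarca4 was at -0.0003 and Smarca2 at 0.33. With no scaling factors 3 members were higher, without Smarca2 and Actl6a, and DESeq2 called 1, Bcl7c, and 17 lower, against its own backgrounds of 13.8% higher and 19.8% lower. The 18 tested members not past the threshold lay between -0.38 for Smarca5-ps and 0.42 for Ino80dos.

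**Figure D3:**
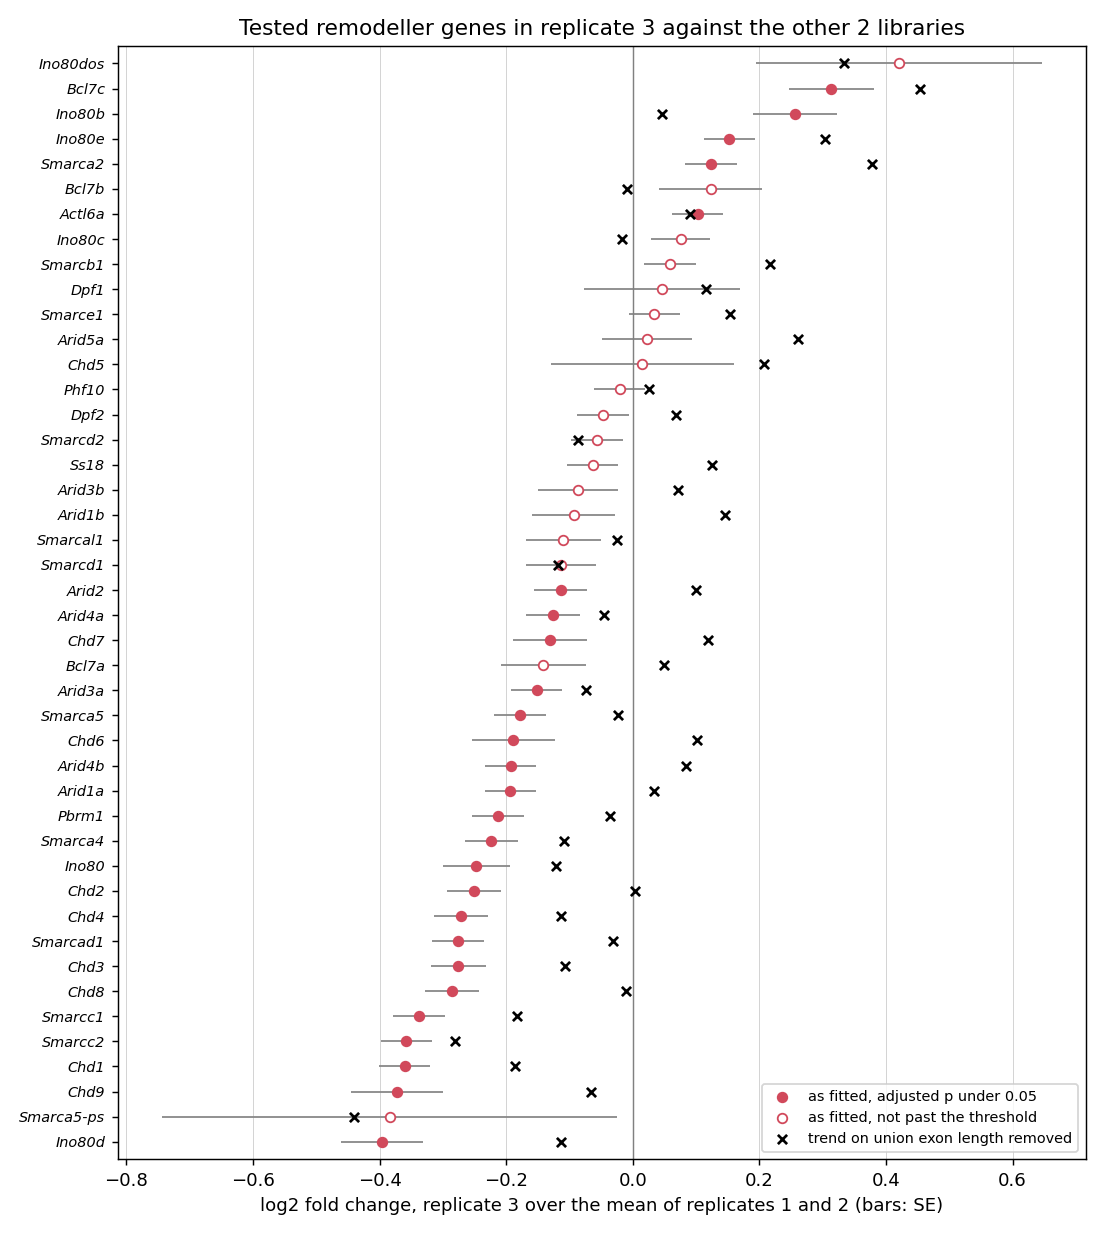
Log2 fold change of the 44 tested genes in replicate 3 over the mean of replicates 1 and 2 by edgeR, with bars for the SE; filled circles are past an adjusted p of 0.05 and crosses give the value after the trend on union exon length is removed. As fitted, 21 filled circles lie below 0 and 5 above; most crosses of the lower genes lie nearer to 0 than their circles.

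Gene length moved with these differences. The detected members had a median union exon length of 7953 bases, against 4466 over all detected genes, and of the 1908 tested genes above 7953 bases 4.09% were called higher in replicate 3, beside the 63.9% called lower. Of the 21 tested members above that length 14 (66.7%) were lower and 1 higher, and of the 23 others 7 were lower and 4 higher. Over all genes the median log2 difference was 0.29 in the shortest length decile and -0.24 in the longest. Across the 44 members the correlation of the log2 difference with log2 length was -0.48 (Pearson), against -0.50 over 11235 genes. These are descriptions across genes that share the same libraries. No share over all tested genes at or below 7953 bases was computed, so the 23 shorter members have no background of like length.

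With the length trend removed by a loess fit on union exon length, 6 members were lower and 8 higher in replicate 3, against backgrounds of 16.6% and 17.5%, and the median over the members was 0.01. The 6 were all among the 21: Smarcc2, Smarcc1, Chd1, Chd4, Smarca4 and Chd3. With a GC content trend removed as well, 8 were lower and 9 higher, against 16.3% and 17.5%. With the trend taken on the longest transcript instead, a setting chosen after seeing the data, 3 were lower, Smarcc2 at -0.24, Smarcc1 at -0.14 and Smarcad1 at -0.12, and 8 higher, against a background of 14% in each direction. Smarcc1 and Smarcc2 were thus lower in either setting. Bcl7c, Ino80e and Smarca2 were higher in either, at 0.45, 0.30 and 0.38 with the union length and 0.53, 0.32 and 0.33 with the longest transcript. Smarcb1 was at 0.06 ± 0.04 (SE) as fitted and at 0.22 and 0.32 in these settings. Arid5a was at 0.02 ± 0.07 (SE) as fitted and at 0.26 and 0.20 in the same settings. Arid2 was lower as fitted, at -0.11, and higher in both, at 0.10 and 0.16. RNA integrity values were not analysed here, and what sets the length trend was not tested.

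**Figure D4:**
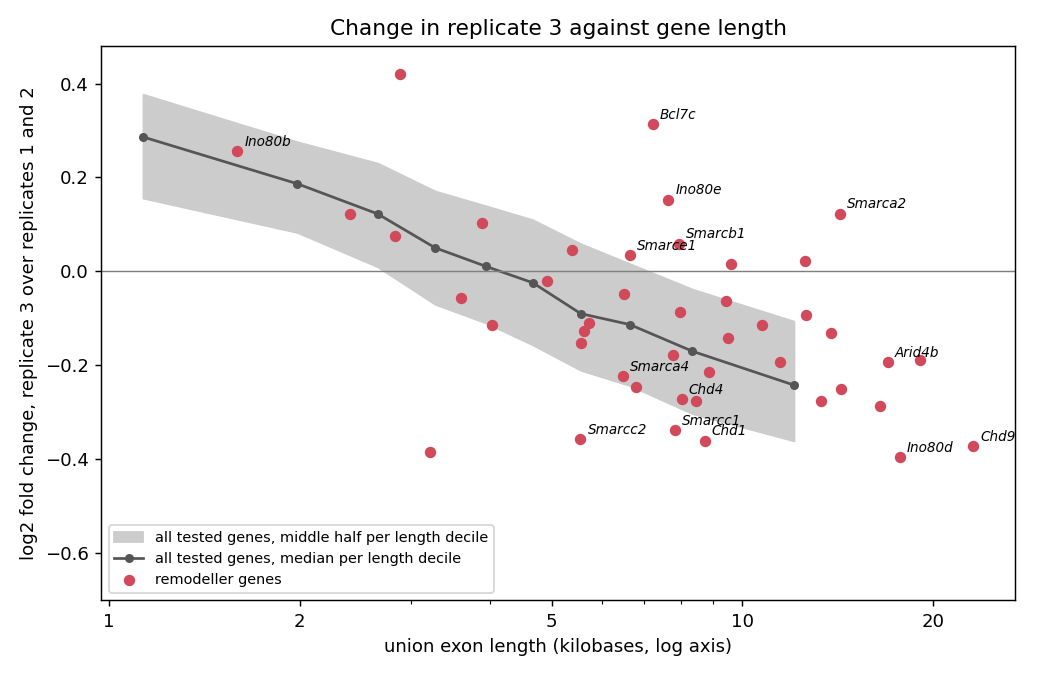
Log2 fold change in replicate 3 over the mean of replicates 1 and 2 against union exon length (log axis) for the 44 tested remodeller genes (points), with the median and the interquartile range of all tested genes per length decile (line and band). The points decline with length as the band does, whose median is 0.29 in the shortest decile and -0.24 in the longest. Bcl7c and Ino80e lie above the band and Smarcc2 below it. Smarca2, at 14269 bases, lies above 0 and beyond the end of the band at 12064.5 bases, the median length of the longest decile.

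Partner genes were also past the threshold in replicate 3, where the backgrounds are 26.8% lower and 24.8% higher over all genes and 63.9% and 4.09% over genes longer than 7953 bases. Of the 9 ISWI partners, with a median union exon length of 13667 bases, 7 were lower and 2, Pole3 and Chrac1, higher, with a median log2 difference of -0.22. With the trend on union exon length removed the median was -0.02. Of the 13 further SNF2 ATPases, with a median length of 7706 bases, 11 were lower and 0 higher, with a median of -0.24. With the trend removed the median was -0.08. The 11 tested NuRD partners had a median of 0.07, with Gatad2b at -0.87 ± 0.08 (SE), and a median of -0.01 with the trend removed. The 18 INO80, SRCAP and TIP60 partners had a median of 0.09, and of 0.01 with the trend removed. The 6 BAF partners had a median of -0.06, and of -0.07 with the trend removed. Among them Gltscr1 and Gltscr1l, which encode the subunits that mark the noncanonical complex, were at -0.40 and -0.31 as fitted. With the trend on longest-transcript length removed, the medians were 0.05 for ISWI, -0.07 for SNF2, 0.01 for NuRD, -0.01 for INO80 and -0.05 for BAF partners. Chrac1, Gatad2b and both Gltscr1 genes were named after their values were seen.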

How the data were processed

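Polyadenylated RNA of 3 samples of 1 line was sequenced with Illumina libraries, per the labels' protocols. The authors deposited whole-number read counts per gene symbol, 1 table per sample. The submitters' processing notes name bcl2fastq, cutadapt 4.2, STAR and the build mm10. The STAR version, the annotation, the strand setting and the counting program remain not given in the sources used here. The members and all lists were chosen with earlier results of these data known.

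From the deposited counts, CPM were computed over each library's total and divided by union exon length in GENCODE M21 (GRCm38), to which 23688 symbols matched directly, 467 by an older symbol and 312 not at all. A gene at 1 CPM or more in every library was called detected. Each library was set against the mean of the other 2 with edgeR 4.0.16 in R 4.3.3 (TMM scaling, filterByExpr, quasi-likelihood test, adjusted p under 0.05 by Benjamini-Hochberg over 11308 genes). The step was tried on simulated data with a spread of 3% between libraries and no length trend. In the real data the common coefficient of variation by edgeR was 9.39% over the 3 libraries. The simulation thus does not show how the step does on these libraries. DESeq2 1.42.0 was an alternative; others were RLE or no scaling, no filter, loess trends (span 0.3) on length and GC content removed, other detection limits, other lengths, 0.5 added counts, and each replicate left out. Ratios between genes were taken within a library and tested by flipping their signs in an exact two-sided permutation test. Library totals were 45705994 to 62303493, so a count of 0 allows up to 0.0482 to 0.0656 CPM in 1 library (a floor of 3 counts). Every member is named with a level; values in each library are given for members of the ratios and for the 5 largest changes per library, and partner genes are named where below 1 CPM or among the 3 highest per kilobase of their list. Promoter sequences are from RefSeq (GRCm38.p6).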

Additional observations from a re-analysis of the deposited data

How the results depend on the processing

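The count of 42 detected members held at 2 CPM, with TMM scaling and without any 1 replicate, and was 43 at 0.5 CPM. Ratios between genes of unequal length depended on the length taken. With no length correction the log2 ratio changed sign for Smarcc1 over Smarcc2 (0.49), Bcl7c over Bcl7a (-0.25), Bcl7b over Bcl7a (-1.11), Pbrm1 over Arid1a (-0.25) and Arid4b over Arid4a (0.99). With the longest transcript it changed sign for Smarcc1 over Smarcc2 (0.15), Bcl7c over Bcl7a (-0.65), Pbrm1 over Arid1a (-0.20), Smarca5 over Smarca4 (0.027) and Arid4b over Arid4a (0.76). Leaving out 1 replicate gave -0.018 to 0.012 for Smarcc1 over Smarcc2 and -0.0062 to 0.23 for Bcl7c over Bcl7a.

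In replicate 3, 5 members were higher and 21 lower as fitted. The count of higher members was 3 with no scaling factors, 1 with DESeq2, 8 with the length trend removed, 9 with length and GC trends removed and 8 with the trend on longest-transcript length removed, a setting chosen after seeing the data. The count of lower members was 6, 8 and 3 under the 3 trend removals. Removing a trend takes out by construction the share of a difference that follows length; the cause of the other shifts was not tested. The median member difference of -0.12 was 0.01 with the length trend removed and -0.13 to -0.10 without replicate 1 or 2, values with no test since no residual degrees of freedom were left. No paired analysis was possible because there was 1 group. With 3 libraries the sign-flipping test of the ratios could not pass 0.05, and members under about 1 CPM rested on few counts.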

Other observations

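Short motifs in the 300-base promoters of the members were counted on both strands as a description of letters, not of binding. TATAAA was in 1 of the 30 matched detected members (3.33%), Smarcd2, against 6.01% of 7790 detected genes and 14.2% of all 27025 promoters. CCGGAA, the core recognised by ETS factors, was in 10 (33.3%), against 33.1% of detected genes and 15.2% of all promoters. The core of the NRF1 site was searched with any base allowed at 1 position, so a match need not be a palindrome. It was in 5 (16.7%), Smarca5 among them, against 12.5% and 4.78%. CACGTG, the E-box bound by MYC and its relatives, was in 4 (13.3%), against 11.1% and 7.24%, and CCAAT in 11 (36.7%), against 40.5% and 37.9%. None of these motifs was searched for overlap with another, and no test was made.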
